A study of Mus musculus with 8 samples.

Results

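*Hsf1*, *Hsf2* and *Hsbp1*, which encode 2 heat shock transcription factors and a small protein that binds HSF1, were followed in the distal colon of WT and *Hsf1* null mice. They were chosen by gene symbol, to look at the reads that remain on *Hsf1* in the null and at the paralog *Hsf2*, and are 3 of the 15859 genes in the count table. All 3 were among the 14371 genes that passed the filter on low counts (a mean normalized count above 5) and were tested.

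The RNA-seq libraries were made from polyadenylated RNA of distal colons from 8 male mice, with 4 groups of 2. The WT and *Hsf1* null mice were littermates, all from a BALB/c x 129SvEV background and labelled as 10 weeks old, and they were left untreated (day 0) or given AOM-DSS (day 15). AOM-DSS was 10 mg/kg of the carcinogen azoxymethane (AOM), injected at 8 weeks of age, followed from day 7 by 5 days of drinking water with 1.5% dextran sulfate sodium (DSS), an irritant of the gut lining. The titles of the treated samples say day 15, whereas the protocol in the labels has the mice killed when DSS ended. The null allele was carried in all cells of the animal, and the part of *Hsf1* that it lacks is not given in the sources used here, so gene counts cannot show where along the gene the remaining reads lie. Each sample was whole tissue, in which fewer cells of a type and less RNA per cell cannot be told apart.

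HSF1 is the main transcription factor of the heat shock response. In unstressed cells it is held inactive by chaperones such as HSP90 and HSP70, and upon protein-damaging stress it forms trimers that bind heat shock elements and switch on chaperone genes. HSF2 shares its DNA-binding domain, can form mixed trimers with HSF1 and is best known from development, while HSBP1 is a small coiled-coil protein that binds the trimerization domain of HSF1 and dampens its activity.

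Total counts were between 2553348 and 12440257 per library, and replicate 2 of each day 0 group stood apart in depth, with 2553348 and 2675976 counts. All 8 absorptive colonocyte markers, all 8 goblet cell markers and all 8 smooth muscle markers passed the filter, as the labelled tissue has. At day 15 the summed level of 10 leukocyte markers was between 899 and 2365 CPM (counts scaled to a common library size by edgeR's TMM method) in WT mice and between 276 and 607 CPM in *Hsf1* null mice. *S100a8* was at 0 in 1 null mouse of each day. At day 0 the leukocyte ranges overlapped, with 272 to 912 CPM in WT and 340 to 388 CPM in null mice. The colonocyte markers summed to 3409 to 6087 CPM in WT and 9025 to 9197 CPM in null mice at day 0, and to 1140 to 2950 CPM and 3410 to 7258 CPM at day 15. Smooth muscle markers summed to 2271 to 3836 CPM in WT and 5489 to 6280 CPM in null mice at day 15, whereas at day 0 WT mice were higher (7498 to 10190 CPM, against 7243 to 7345 CPM). Goblet cell markers summed to 6977 to 9188 CPM in WT and 18722 to 38792 CPM in null mice at day 15, and at day 0 the ranges overlapped. Fibroblast markers, 8 genes, summed to 2439 to 2489 CPM in WT and 477 to 1478 CPM in null mice at day 15, with 8 of 8 log2 fold changes negative and 0 called by edgeR (1.25% of all genes were called lower), while 3 were lower at an unadjusted p under 0.05 (11.6% of all genes). The part of these differences in the values of *Hsf1*, *Hsf2* and *Hsbp1* was not tested.

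*Hsf1* (ENSMUSG00000022556) lies on chromosome 15, from 76477422 to 76501913 on the plus strand of GRCm38 (the assembly also called mm10), and GENCODE M21 lists 16 transcripts for it. *Hsf2* (ENSMUSG00000019878) lies on chromosome 10, from 57486385 to 57513135 on the plus strand, with 6 transcripts. *Hsbp1* (ENSMUSG00000031839) is a short gene on chromosome 8, from 119344488 to 119348922 on the plus strand, with 4 transcripts. The principal transcripts have 13, 12 and 4 exons and lengths of 2084, 2604 and 1208 nt, of which 1575, 1551 and 228 nt are coding.

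Because *Hsf1* and *Hsf2* are paralogs, reads of one could in principle be counted on the other. The coding sequences of their principal transcripts were aligned, and 62.7% of the 1381 aligned bases were identical. The longest run shared by the *Hsf1* and *Hsf2* transcripts was 23 nt. Of the stretches of 50 nt in the principal transcripts (2035 in *Hsf1*, 2555 in *Hsf2* and 1159 in *Hsbp1*), 0 occurred in an annotated transcript of another gene. By the same count, 66.3% of the 50 nt stretches of *Hspa1a*, an HSP70 gene with a near-identical copy, occurred in other genes. The read length is not given in the sources used here.

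*Hsf1*, the targeted gene, was lower in every null mouse than in every WT mouse, and reads remained on it in all 4 null mice. The untreated WT mice had 40.5 and 36.5 CPM of *Hsf1* (413 and 92 reads), and the untreated null mice had 14.0 and 11.9 CPM (170 and 33 reads). After AOM-DSS the WT mice had 50.5 and 45.9 CPM (580 and 435 reads), against 13.5 and 9.09 CPM (87 and 68 reads) in the null mice. The genotypes did not overlap at either day, which was so, in the lower direction, for 7.98% of all genes tested. The lowest count, 33 reads in 1 of the 2 shallow libraries, gave a 95% Poisson interval of 8.16 to 16.7 CPM, well below the interval of 29.4 to 44.8 CPM of the shallow WT library.

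In null mice at day 0, the fitted *Hsf1* level was 33.8% of that in WT mice (95% interval 21.3 to 53.6%), a log2 fold change of -1.57 (SE 0.30). Its adjusted p was 0.775 by edgeR's quasi-likelihood test, and so it was not called, although its unadjusted p of 0.000378 was the 5th smallest of all genes. At this day 0% of the genes were called (adjusted p under 0.05 and absolute log2 fold change above 1), while 904 genes (6.29%) had an unadjusted p under 0.05 and DESeq2 called 18. By DESeq2, *Hsf1* was called at day 0, with a log2 fold change of -1.55 and an adjusted p of 0.0328.

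After AOM-DSS, at day 15, *Hsf1* in null mice was 23.4% of the WT level (14.8 to 37.0%). The log2 fold change was -2.10 (SE 0.30, adjusted p = 0.0137 by edgeR's quasi-likelihood test), and *Hsf1* was called lower, as were 1.25% of the genes tested (3.17% in both directions). Averaged over both days, *Hsf1* was lower by 3.56-fold (2.57 to 4.92), with a log2 fold change of -1.83 (SE 0.21, adjusted p = 0.0151 by edgeR's quasi-likelihood test). In that average 0.362% of genes were called lower and 1.01% in all, and *Hsf1* had the 4th smallest p.

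Both calls were lost when some libraries were left out. At day 15 the edgeR adjusted p became 0.0524 without replicate 1 and 0.0517 without replicate 2 of the null day 0 group, 0.0633 without replicate 2 of the WT day 15 group and 0.0641 without both shallow libraries, while the log2 fold change stayed between -2.40 and -1.83 with any 1 library left out. For the mean of both days the adjusted p became 0.0915 without replicate 1 of the WT day 0 group, 0.120 and 0.112 without replicate 1 and 2 of the null day 0 group, and 0.109 without both shallow libraries, at log2 fold changes between -1.97 and -1.70 with any 1 left out.

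**Figure D1:**
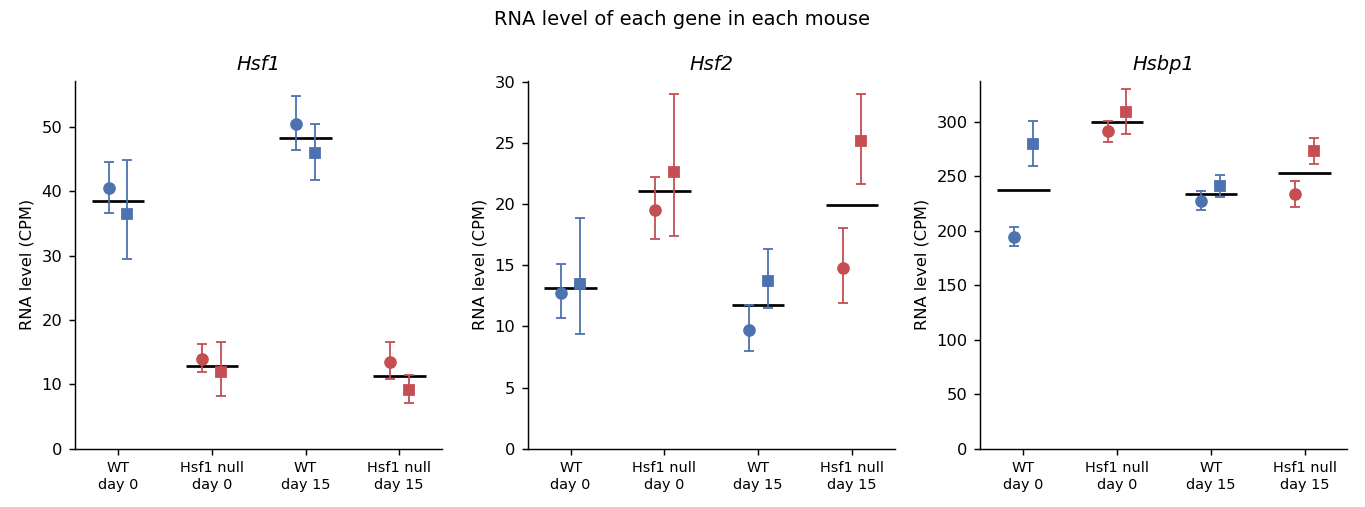
RNA level (CPM) of *Hsf1*, *Hsf2* and *Hsbp1* in each of the 8 mice, with WT in blue, *Hsf1* null in red, circles for replicate 1, squares for replicate 2, 95% Poisson intervals (counting error only) as error bars and group means as black lines. *Hsf1* lies between 36.5 and 50.5 CPM in WT and between 9.09 and 14.0 CPM in null mice, *Hsf2* lies higher in null than in WT mice within each day, and *Hsbp1* overlaps between genotypes at day 15.

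*Hsf2*, the paralog, lay higher in the null mice than in the WT mice within each day, but the difference did not pass the test. Untreated, the WT mice had 12.7 and 13.5 CPM of *Hsf2* (130 and 34 reads) and the null mice 19.5 and 22.6 CPM (238 and 63 reads). Treated, the WT mice had 9.74 and 13.7 CPM (112 and 130 reads) and the null mice 14.7 and 25.1 CPM (95 and 188 reads). The genotypes did not overlap within a day, though the lower null mouse of day 15, at 14.7 CPM, lay just above the higher WT mouse, at 13.7 CPM. In all, 8.04% of the genes tested were likewise higher in null mice at both days without overlap. The 2 null mice of day 15 differed more from each other (SD 7.36 CPM) than the 2 of any other group (SD at most 2.82 CPM).

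The fitted *Hsf2* level in null mice was 1.60-fold that of WT at day 0 (95% interval 0.907 to 2.84) and 1.70-fold at day 15 (0.979 to 2.96), and both intervals included no change. The log2 fold changes were 0.68 (SE 0.37) and 0.77 (SE 0.36), with adjusted p of 0.795 and 0.230 by edgeR's quasi-likelihood test. Averaged over both days, *Hsf2* was 1.65-fold higher (1.11 to 2.46), a log2 fold change of 0.72 (SE 0.26) with an unadjusted p of 0.0183 and an adjusted p of 0.146 by edgeR's quasi-likelihood test. In that average 10.3% of genes were higher in null mice at an unadjusted p under 0.05, and the log2 fold change of *Hsf2* was above that of 92.7% of the genes. Without replicate 2 of the null day 15 group the log2 fold change at day 15 was 0.33, and without replicate 1 of that group it was 1.11, neither of them called.

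*Hsbp1*, the binding protein, was the most abundant of the 3 transcripts in every mouse, in CPM and in CPM per kb. Untreated, the WT mice had 195 and 280 CPM of *Hsbp1* and the null mice 291 and 309 CPM. Treated, the WT mice had 227 and 241 CPM and the null mice 233 and 274 CPM. The genotypes did not overlap at day 0, as for 18.7% of genes in the higher direction, but overlapped at day 15, where the lower null mouse, at 233 CPM, was below the higher WT mouse. The WT mice of day 0 were spread the most (SD 60.3 CPM), and the lower of them was the deeper library.

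Relative to WT, *Hsbp1* in null mice was 1.27-fold at day 0 (95% interval 0.858 to 1.87) and 1.08-fold at day 15 (0.734 to 1.59). For the mean of both days the log2 fold change was 0.23 (SE 0.18, adjusted p = 0.482 by edgeR's quasi-likelihood test), with an interval of -0.17 to 0.62. The upper bound of that interval is a 1.54-fold higher level. Without replicate 1 of the WT day 0 group, the log2 fold change at day 0 was 0.10, and without replicate 2 of that group it was 0.64.

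AOM-DSS treatment itself was not followed by a called change in any of the 3 genes. In WT mice the log2 fold changes from day 0 to day 15 were 0.32 for *Hsf1* (95% interval -0.31 to 0.95), -0.16 for *Hsf2* (-0.97 to 0.66) and -0.01 for *Hsbp1* (-0.58 to 0.55). Both treated WT mice lay above both untreated WT mice in *Hsf1*, as for 31% of genes, while *Hsf2* and *Hsbp1* overlapped between the days. In null mice the log2 fold changes were -0.21 for *Hsf1* (-0.88 to 0.46), -0.07 for *Hsf2* (-0.87 to 0.73) and -0.24 for *Hsbp1* (-0.80 to 0.32). Both treated null mice lay below both untreated null mice in *Hsbp1*, as for 30.3% of genes, while *Hsf1* and *Hsf2* overlapped. The adjusted p by edgeR's quasi-likelihood test was at least 0.492 in each of these 6 values, in comparisons that called 7.74% of the genes in WT and 11.8% in null mice.

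The difference between the genotypes did not differ detectably between the days. The interaction was -0.53 for *Hsf1* (95% interval -1.45 to 0.39), 0.09 for *Hsf2* (-1.06 to 1.23) and -0.23 for *Hsbp1* (-1.02 to 0.56) on the log2 scale. Its adjusted p was 0.744, 0.970 and 0.884 by edgeR's quasi-likelihood test, in a comparison that called 0.00696% of genes, a single gene (*Slc15a2*, looked up after its value was seen). The comparisons share groups of mice and are not independent of each other.

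**Figure D2:**
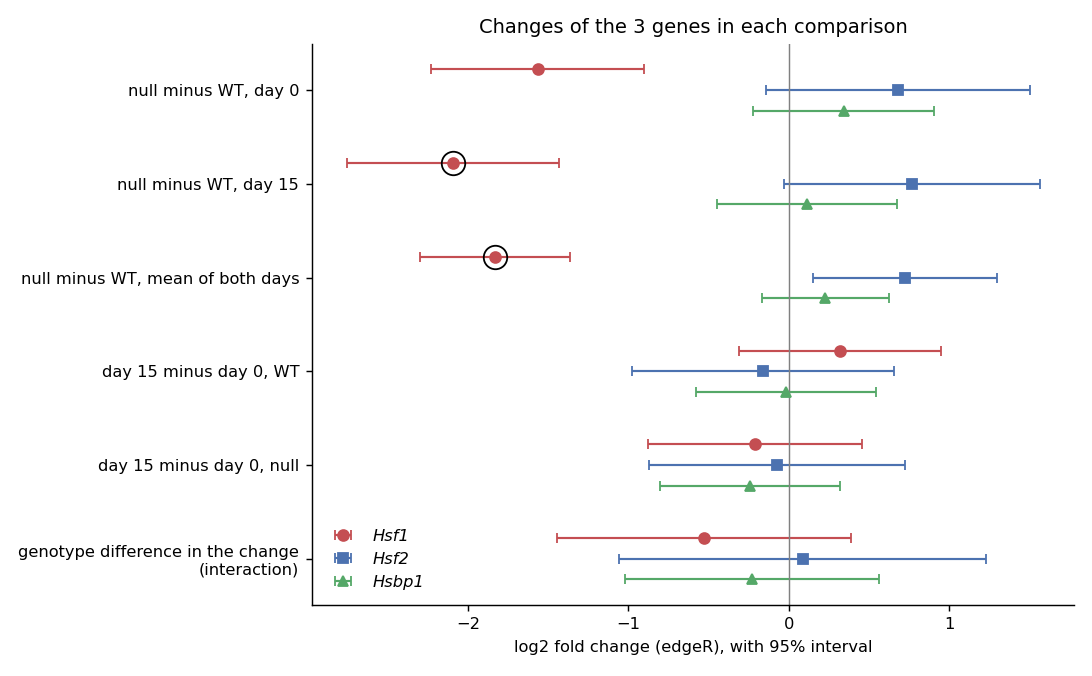
Log2 fold change (x axis) with 95% interval of *Hsf1* (circles), *Hsf2* (squares) and *Hsbp1* (triangles) in each comparison of groups (y axis), from edgeR. Open black circles mark the called values, which are *Hsf1* at day 15 (-2.10) and in the mean of both days (-1.83), and the only other interval that excludes 0 besides *Hsf1* at day 0 is that of *Hsf2* in the mean of both days (0.15 to 1.30).

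Levels were compared between genes per length, as CPM per kb of the principal transcript. In WT mice *Hsf1* was the more abundant factor, at 19.4 and 17.5 CPM per kb at day 0 and 24.2 and 22.0 at day 15, whereas *Hsf2* was at 4.89 and 5.18 at day 0 and 3.74 and 5.27 at day 15. In null mice the *Hsf1* level per kb was 6.70 and 5.69 at day 0 and 6.48 and 4.36 at day 15, and that of *Hsf2* was 7.51 and 8.69, and 5.66 and 9.66. The level of *Hsf1* was thus 3.38 to 6.47 times that of *Hsf2* in the 4 WT mice and 0.452 to 1.14 times in the 4 null mice, and *Hsf2* was the higher of the pair in 3 of 4 null mice. If the null transcript is shorter than the annotated one, its level per kb is understated.

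The share of *Hsf1* among the reads of both factors does not depend on how libraries are scaled. In untreated WT mice it was 76.1% (exact binomial 95% interval 72.2 to 79.6) and 73.0% (64.4 to 80.5), against 41.7% (36.8 to 46.6) and 34.4% (25.0 to 44.8) in untreated null mice. After AOM-DSS it was 83.8% (80.9 to 86.5) and 77.0% (73.3 to 80.4) in WT mice, against 47.8% (40.4 to 55.3) and 26.6% (21.3 to 32.4) in null mice. These intervals cover counting error only, and the 2 null mice of day 15 differed beyond it. The share was 39.9 percentage points lower in null mice (77.5% against 37.6% on average), with p = 0.0556 in a two-sided exact permutation test of the genotypes within days, which is the smallest p that its 36 assignments allow.

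Per length, the difference in *Hsf2* between the genotypes, which was not called, was small beside the difference in *Hsf1*. The mean *Hsf2* level of null mice was 3.06 CPM per kb above WT at day 0 and 3.15 above at day 15, against 12.3 and 17.7 CPM per kb less of *Hsf1*, so that it equalled 24.9% and 17.8% of the *Hsf1* difference. The day 15 share was 6.92% without replicate 2 of the null group, where the *Hsf2* difference was 1.15 CPM per kb, and 27.4% without replicate 1 of that group. The sum of both factors was 24.3 and 22.7 CPM per kb in WT and 14.2 and 14.4 in null mice at day 0, and 28.0 and 27.3 in WT and 12.1 and 14.0 in null mice at day 15. Null mice thus had 60.8% and 47.3% of the WT sum at the 2 days, a difference that again had the smallest p possible (0.0556, exact permutation test, two-sided). Since the remaining *Hsf1* reads are part of this sum, it measures transcript, not factor.

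Per read of *Hsf1* or *Hsf2*, the untreated WT mice had 3.66 and 5.60 *Hsbp1* reads and the untreated null mice 8.70 and 8.96. After AOM-DSS the WT mice had 3.78 and 4.04 and the null mice 8.27 and 7.99. The 4 null mice lay close together and above all 4 WT mice, by 1.01 on the log2 scale. The denominator of this ratio holds the reads of the targeted gene and was lower in null mice, while *Hsbp1* itself had a log2 fold change of 0.23 that was not called, so most of the difference lies in the denominator. The share, the sum and this ratio all include *Hsf1* and are no evidence apart from its lower level. Adjusted over the exact permutation tests of the 3 quantities the p remained 0.0556, and within 1 day the 2 against 2 mice could not give an exact p below 0.333.

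**Figure D3:**
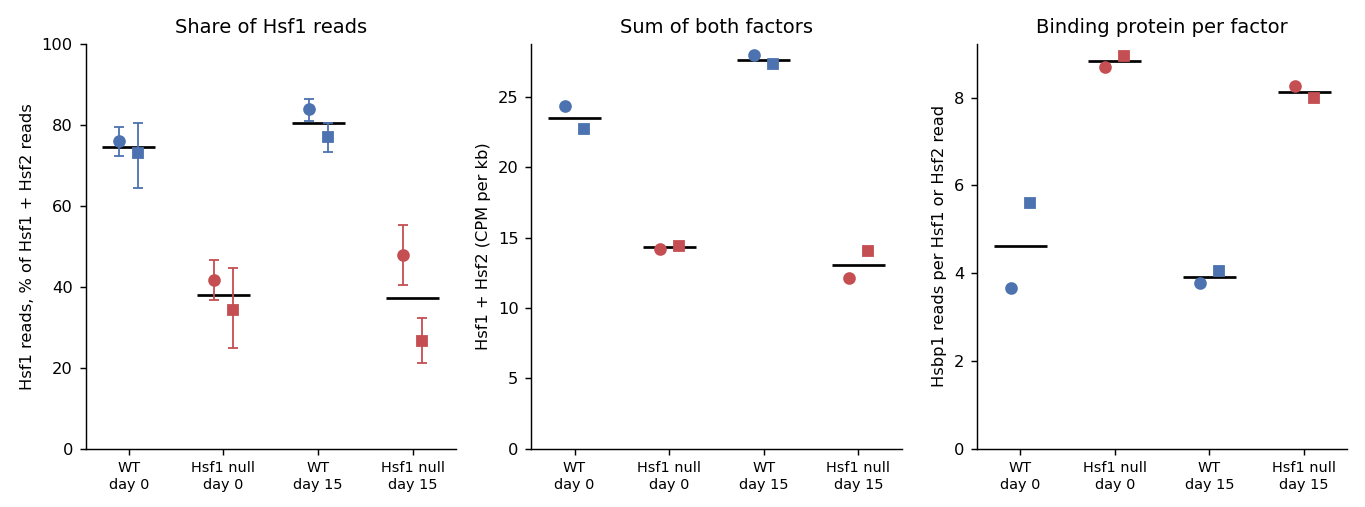
Ratios in each mouse, with WT in blue, *Hsf1* null in red, circles for replicate 1, squares for replicate 2 and black lines for group means. The share of *Hsf1* reads (left, %, with exact binomial 95% intervals) is 73.0 to 83.8% in WT and 26.6 to 47.8% in null mice, the sum of both factors (middle, CPM per kb) is 22.7 to 28.0 and 12.1 to 14.4, and the *Hsbp1* reads per factor read (right) are 3.66 to 5.60 and 7.99 to 8.96.

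Across the 8 mice, Pearson's r of log2(CPM + 1) was -0.89 between *Hsf1* and *Hsf2*, -0.60 between *Hsf1* and *Hsbp1* and 0.70 between *Hsf2* and *Hsbp1*. These mice fall into genotypes that differ in *Hsf1*, so r describes that split as much as any variation within it. Among 11050 genes with a mean count of at least 50, the 5 most like *Hsf1* were *Trp53* (r = 0.971), the p53 tumor suppressor, *Tcf3* (0.968), a transcription factor of the E-protein family, the signaling adaptor *Shc1* (0.963), the ubiquitin-conjugating enzyme *Ube2o* (0.962) and *Ppp1ca* (0.959), a catalytic subunit of protein phosphatase 1. Their log2 fold changes between null and WT mice in the mean of both days were between -0.73 and -0.67, much smaller than that of *Hsf1*. Those most like *Hsf2* were *Uhrf2* (0.982), *Arpc5* (0.975), *Impa1* (0.955), *Cluap1* (0.954) and *Zfp120* (0.952), with log2 fold changes of 0.39 to 0.80. Those most like *Hsbp1* were *Sec11a* (0.963), *2310009A05Rik* (0.952), *Mrps18c* (0.949), *Rasd1* (0.948) and *Cox20* (0.943), with 0.13 to 0.36.

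Next to *Hsf1*, the neighbor *Bop1*, which encodes a ribosome biogenesis factor, starts 144 bp before it on the opposite strand, and *Dgat1*, an enzyme of triglyceride synthesis, ends 101 bp after it. Neither overlaps *Hsf1* in the annotation. For *Bop1*, the untreated WT mice had 38.6 and 38.9 CPM and the untreated null mice 30.2 and 24.8 CPM. Treated, the WT mice had 72.2 and 72.3 CPM and the null mice 53.7 and 55.6 CPM. It lay lower in null mice at both days without overlap, as *Hsf1* did, but by a log2 fold change of only -0.44 in the mean of both days (SE 0.16, adjusted p = 0.159 by edgeR's quasi-likelihood test). From day 0 to day 15 *Bop1* had log2 fold changes of 0.90 in WT and 0.98 in null mice, where *Hsf1* had 0.32 and -0.21.

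For *Dgat1*, on the other side of *Hsf1*, the genotypes overlapped before treatment, with 36.8 and 41.7 CPM in WT against 65.2 and 37.7 CPM in null mice. After AOM-DSS the WT mice had 49.8 and 53.0 CPM and the null mice 83.9 and 66.3 CPM. Its log2 fold change in the mean of both days was 0.48 (SE 0.21, adjusted p = 0.209 by edgeR's quasi-likelihood test), opposite in sign to that of *Hsf1*. Reads that run past the end of *Dgat1* or *Hsf1* could fall on the other gene if strand was not used in counting, which is not given in the sources used here.

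**Figure D4:**
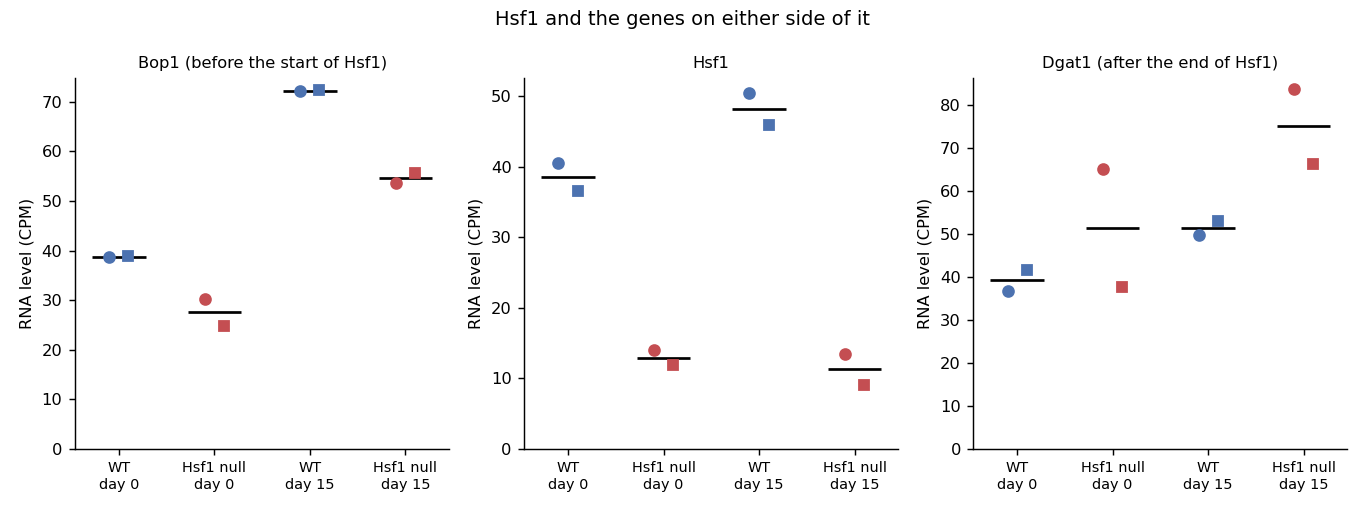
RNA level (CPM) of *Bop1*, *Hsf1* and *Dgat1* in each mouse, with WT in blue, *Hsf1* null in red, circles for replicate 1, squares for replicate 2 and black lines for group means. *Hsf1* is at 9.09 to 14.0 CPM in null mice, whereas *Bop1* is at 24.8 to 55.6 CPM and *Dgat1* at 37.7 to 83.9 CPM in the same mice.

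The nearest tested genes to *Hsf2* were *Gja1*, a gap junction gene far upstream, and *Serinc1*, on the opposite strand, whose end lies 2638 bp after that of *Hsf2*. *Serinc1* had a log2 fold change of 0.55 between null and WT mice in the mean of both days (SE 0.27) and *Gja1* of -1.20 (SE 0.40), beside 0.72 for *Hsf2*. The lincRNA *4930467K11Rik*, 33 bp before the start of *Hsf2* on the opposite strand, was not analyzed here. Near *Hsbp1*, *Cdh13*, which encodes a cadherin, had -1.08 (SE 0.39) and *Mlycd*, a malonyl-CoA decarboxylase, had 0.39 (SE 0.25), beside 0.23 for *Hsbp1*. None of these 4 neighbors was called in the mean of both days (adjusted p of 0.128 to 0.383 by edgeR's quasi-likelihood test).

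The sequences before *Hsf2* and *Hsbp1* are shown because they could carry heat shock elements, the sites that HSF1 binds. The windows searched were the 250 bases before the RefSeq starts, on the plus strand of GRCm38.p6 and written 5′ to 3′. For *Hsf2* this is chr10:57486135-57486384. For *Hsbp1* the RefSeq start lies 50 bases after the GENCODE start given above, so only the 200 bases before the latter, chr8:119344288-119344487, are printed. Capitals mark matches, on either strand, of the E-box CACGTG, the GC box GGGCGG and the motif CCAAT.
Hsf2: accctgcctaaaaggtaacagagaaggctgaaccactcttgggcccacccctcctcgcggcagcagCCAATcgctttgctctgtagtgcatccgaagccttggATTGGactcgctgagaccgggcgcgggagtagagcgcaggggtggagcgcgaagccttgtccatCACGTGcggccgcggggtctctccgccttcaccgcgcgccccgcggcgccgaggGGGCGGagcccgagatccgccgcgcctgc
Hsbp1: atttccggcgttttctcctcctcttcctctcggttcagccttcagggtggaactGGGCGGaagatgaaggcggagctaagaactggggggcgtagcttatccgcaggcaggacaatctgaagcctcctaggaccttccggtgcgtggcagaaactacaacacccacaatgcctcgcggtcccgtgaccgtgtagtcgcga

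The 2 core forms of the heat shock element, GAANNTTC and TTCNNGAA, had no match in either window. Of 32851 promoter windows of the same length, 6.69% held the first form and 7.17% the second. The *Hsf2* window held 2 matches of CCAAT, starting 184 and 147 bases before the gene (33.8% of windows had one), 1 E-box 83 bases before (6.02%) and 1 GC box 29 bases before (32.7%). The *Hsbp1* window held 1 GC box, 196 bases before the RefSeq start and 146 before that of GENCODE. The GC content was 68.4% and 58.8%, against a median of 52.4% over all windows. *Hsf1* and *Bop1* had no entry.

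Of the other genes of the heat shock factor family, 3 passed the filter on low counts. *Hsf4*, best known from the lens of the eye, was at 0.784 to 2.16 CPM at day 0 and 2.67 to 6.44 CPM at day 15, and its log2 fold change between null and WT mice in the mean of both days was 0.09 (SE 0.46). *Hsf5* had 0 to 7 counts per library and did not pass the filter, and *Hsf3* and *Hsfy2* were not analyzed here. *Hsbp1l1*, a gene related to *Hsbp1*, was at 0.348 to 4.76 CPM with a log2 fold change of 0.62 (SE 0.58). *Hsf2bp*, whose product binds HSF2, was at 1.99 to 6.18 CPM with -0.37 (SE 0.38). It was higher in null mice at day 0 and lower at day 15 without overlap, as were 2.41% of all genes tested. None of the 3 tested genes was called in any of the comparisons by edgeR.

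The chaperones that hold HSF1 inactive, and proteins that act with them, were followed with 11 genes, all tested. At day 15, 1 of the 11 was called lower in null mice, beside 1.25% of all genes, and 0 higher (DESeq2 called 4 lower, beside 4.11% of all genes). Of the values, 9 of 11 were negative, with a median log2 fold change of -0.65 against -0.03 over all genes. This median was -0.34 without replicate 2 of the WT day 15 group, and -0.35 and -1.19 without replicate 1 and 2 of the null day 15 group. In the fit of all mice 5 had an unadjusted p below 0.05 and a lower value, as had 11.6% of all genes. The called gene was *Dnajb1*, which encodes the HSP40 that works with HSP70. Untreated WT mice had 63.4 and 89.7 CPM of *Dnajb1* and untreated null mice 51.8 and 50.7 CPM, while the treated WT mice had 78.6 and 133 CPM and the treated null mice 37.1 and 31.8 CPM. Its log2 fold change at day 15 was -1.62 (SE 0.30, adjusted p = 0.0277 by edgeR's quasi-likelihood test), beside -2.10 for *Hsf1*. The HSP90 genes *Hsp90aa1* and *Hsp90ab1* had -0.82 (SE 0.40) and -0.12 (SE 0.32) and were not called. For the HSP70 gene *Hspa1a* the treated WT mice had 10.4 and 73.5 CPM and the treated null mice 5.43 and 12.0 CPM, which overlap, and most of its sequence cannot be told from that of its copy *Hspa1b*.

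The 22 known targets of the heat shock response were all tested, and some of them are also in the chaperone list. At day 15, 3 were called lower and 0 higher in null mice (*Dnajb1*, *Ahsa1* and *Ubb*), beside 1.25% of all genes called lower. The median was -0.91 against -0.03 over all genes, and 11 of 22 were lower at an unadjusted p under 0.05, beside 11.6% of all genes. *Ahsa1* encodes an activator of HSP90, and the treated WT mice had 58.3 and 80.3 CPM of it against 31.6 and 28.0 CPM in the null mice, a log2 fold change of -1.22 (SE 0.26, adjusted p = 0.0385 by edgeR's quasi-likelihood test). For the polyubiquitin gene *Ubb* the values were 82.3 and 75.0 CPM in WT against 29.0 and 15.2 CPM in null mice, a log2 fold change of -1.83 (SE 0.33, adjusted p = 0.0240 by edgeR's quasi-likelihood test). At day 0 the median was -0.32 against -0.01 over all genes, and 3 of 22 had an unadjusted p below 0.05 with a lower value, as had 3.93% of all genes. In the mean of both days 2 of 22 were called lower (*Dnajb1* and *Ubb*), beside 0.362% of all genes, and 20 of 22 values were negative. At day 15 the cell type markers also differed between the genotypes, with medians of -1.79 for leukocyte and -1.18 for fibroblast markers. Those of goblet cell, absorptive colonocyte and smooth muscle markers were 1.45, 0.88 and 0.88. Their part in the values of the targets was not tested.

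The count of called targets moved with the tool and the libraries. At day 15 DESeq2 called 9 of the 22 lower, beside 4.11% of all genes. With a replicate block in which the 2 WT mice of day 0 were exchanged, edgeR called 7 targets and 2 chaperones lower. That fit, chosen after seeing the data, called 1314 genes in both directions. EdgeR called 7 without replicate 1 of the WT day 15 group, 1 without replicate 1 of the null day 15 group, and 0 without either replicate of the null day 0 group, without both shallow libraries, in a fit of the day 15 groups alone and without replicate 2 of the WT day 15 group. It called 2 with the replicate block, with thinned counts, without either replicate of the WT day 0 group and without replicate 2 of the null day 15 group, and *Ahsa1* was not among them. The 1 call among the chaperones became 0 in the 5 fits that called 0 targets and without replicate 1 of the null day 15 group, 3 without replicate 1 of the WT day 15 group and 2 without replicate 2 of the null day 15 group, where *Dnajb1* itself was not called. In the mean of both days DESeq2 called 5 of the 22 targets lower, beside 2.82% of all genes. There edgeR called 0 with the replicate block, 1 with thinned counts and 4 with the block in which the WT mice of day 0 were exchanged. The calls also moved when single libraries were left out, which leaves 1 mouse in a group. In some of those fits neither *Dnajb1* nor *Ubb* was called.

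Without replicate 2 of the WT day 15 group, the mouse in which *Hspa1a* was highest, the median of the 22 targets at day 15 was -0.42 in place of -0.91, while the log2 fold change of *Hsf1* was -2.16.

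Among the enzymes that modify HSF1 or control its turnover, *Plk1*, a mitotic kinase that phosphorylates HSF1, rose from day 0 to day 15 in WT (log2 fold change 1.66) and null mice (3.02), and *Prkaa2*, a catalytic subunit of the energy-sensing kinase AMPK, fell in both (-1.63 and -1.15). *Dyrk2* fell in WT mice (-1.56, beside -0.73 in null mice, not called), and *Sirt1* and *Nedd4* fell in null mice (-1.19 and -1.04, beside -0.84 and -0.35 in WT mice, not called). The difference between the genotypes in these changes was not called for any of these 5 genes. *Plk1* started lower in null mice, with 10.9 and 3.95 CPM untreated, against 32.8 and 27.8 CPM in WT mice. Treated, the null mice had 56.5 and 75.7 CPM and the WT mice 114 and 78.5 CPM. DESeq2 called *Plk1* lower in null mice at day 0 and in the mean of both days. EdgeR's main fit called it in neither, but did so in the mean with a replicate block in which the 2 WT mice of day 0 were exchanged.

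Of 12 co-activators and partners of HSF1, 0 were called between the genotypes by edgeR at day 15, beside 3.17% of all genes, and the median log2 fold change was -0.20. *Ppargc1a*, a co-activator of mitochondrial genes, was the 1 member that was higher at an unadjusted p under 0.05, as were 11.6% of all genes. The treated WT mice had 12.4 and 3.49 CPM of it and the treated null mice 47.3 and 16.9 CPM, a log2 fold change of 1.99 (SE 0.57, adjusted p = 0.0804 by edgeR's quasi-likelihood test). It was called higher by DESeq2, with a replicate block in which the 2 WT mice of day 0 were exchanged, and without replicate 1 of the WT or replicate 2 of the null day 15 group. In WT mice *Ppargc1a* fell from day 0 to day 15 (-3.16, SE 0.59), beside -1.30 (SE 0.55) in null mice, which was not called. Of 7 genes that act on HSF2 or bind it, 0 were called between the genotypes by edgeR at day 15, and 0 were below an unadjusted p of 0.05 (23.2% of all genes were), with a median of -0.23 beside 0.77 for *Hsf2*. *Cdc20*, part of the ubiquitin ligase complex that degrades HSF2, rose from day 0 to day 15 in WT (1.18, SE 0.31) and null mice (2.46, SE 0.33), while *Hsf2* had -0.16 and -0.07. Like *Plk1* it acts in mitosis, and 8 of 8 proliferation markers had positive values from day 0 to day 15 in both genotypes, with medians of 1.10 in WT and 1.00 in null mice, against 0.0046 and 0.052 over all genes. In WT mice 3 of them were called higher, beside 3.47% of all genes, and in null mice 4, beside 5.3%. Their part in the values of *Cdc20* and *Plk1* was not tested. *Stub1*, a ubiquitin ligase of the chaperone list, rose in null mice (1.76, SE 0.29), beside 1.03 (SE 0.29) in WT mice, which was not called. The difference between the genotypes in this change was 0.73 (SE 0.40, adjusted p = 0.653 by edgeR's quasi-likelihood test).

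**Figure D5:**
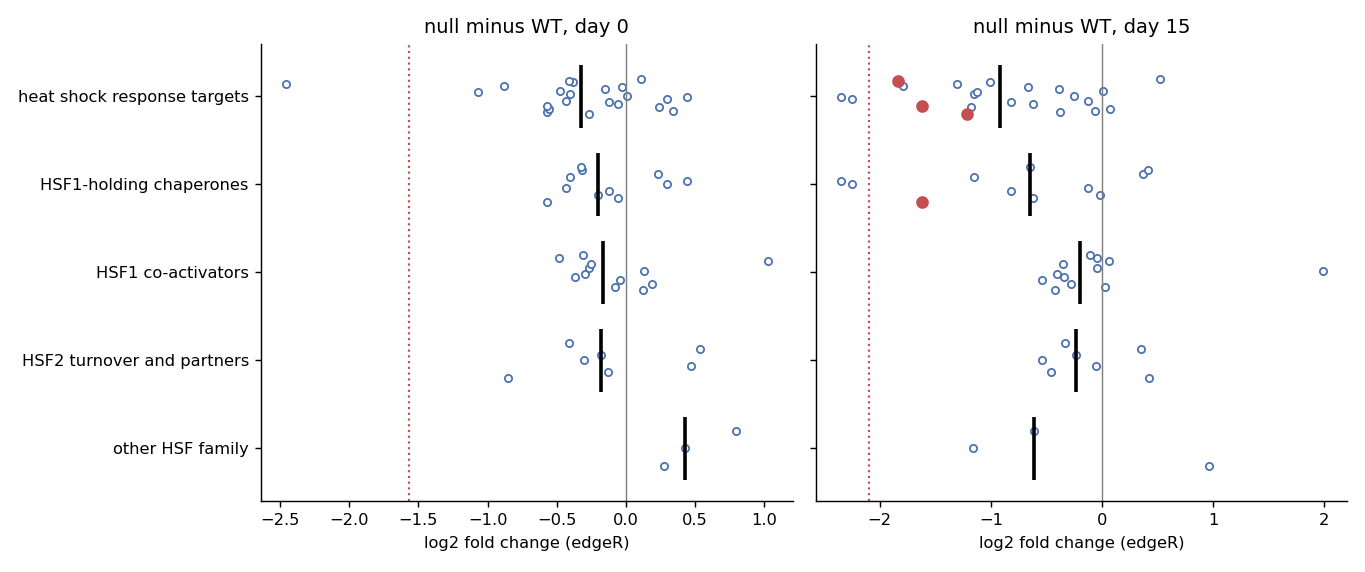
Log2 fold change between null and WT mice (x axis) at day 0 (left) and day 15 (right) of each tested gene in 5 lists of the HSF pathway (y axis), with called genes as filled red points, genes not called as open blue points, list medians as black bars and the value of *Hsf1* as a dotted red line. At day 15 the called genes lie between -1.83 and -1.22 and the median of the heat shock response targets is -0.91, whereas at day 0 none was called.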

How the data were processed

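The authors aligned reads from polyadenylated RNA (SENSE mRNA-Seq libraries) to mm10 with STAR and deposited unnormalized counts per gene symbol. The program that counted reads, the annotation and the use of strand are not given in the sources used here. The deposited counts hold 15859 genes, each with at least 6 counts in 1 or more libraries. A second deposited table, here called signal, holds those counts after division by DESeq2's size factors, and it was used only to check the normalization.

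Genotype, day and replicate were taken from the labels. The counts were fitted with edgeR 4.0.16 in R 4.3.3 (TMM, 1 model of 4 group means on all 8 samples, quasi-likelihood test) over 14371 genes, those whose normalized counts averaged above 5, with Benjamini-Hochberg adjustment within each comparison. A gene was called if its adjusted p was under 0.05 and its log2 fold change exceeded 1 in size. SEs and 95% intervals come from the same fit. Total counts were between 2553348 and 12440257, with 2 mice per group, and p-values measure the spread between these mice. Ratios were computed in Python 3.11.15 with scipy 1.17.1. Coding sequences were aligned with biopython 1.88. Positions and transcripts come from GENCODE M21 on GRCm38, and promoters from RefSeq (2 of the 3 genes matched).

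Named genes are *Hsf1*, *Hsf2*, *Hsbp1*, the other HSF family genes, the nearest tested gene on each side and any gene within 5 kb of each, the called genes of the pathway lists (up to 4 by size of change) and the 5 genes most like each of the 3. *Hsp90aa1*, *Hsp90ab1*, *Hspa1a*, *Hspa1b*, *Hspa8* and further called genes of the lists were named after their values were seen. Some genes of the list of HSF1-modifying enzymes, and so its counts and medians, and a coding sequence are not reported here. The members and lists were chosen with earlier results of these data known. The scripts were tested on simulated counts.

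The alternatives were DESeq2 1.42.0, library totals without TMM, DESeq2's size factors in edgeR, all genes without a filter, filterByExpr, a block for the replicate number, thinning all libraries to the smallest, fits of only the 2 groups at hand, and leaving out single samples. A crossed block and the removal of the smallest library of each day 0 group were added after seeing the data.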

Additional observations from a re-analysis of the deposited data

Results flagged for a closer look

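*Hsf2bp* went opposite ways at the 2 days. Untreated WT mice had 2.06 and 1.99 CPM and untreated null mice 3.12 and 2.16 CPM, while the treated WT mice had 6.18 and 4.44 CPM and the treated null mice 2.48 and 2.27 CPM, so that both null mice lay above both WT mice at day 0 and below them at day 15, as for 2.41% of all genes tested. The difference between the days was -1.58 on the log2 scale, with an adjusted p of 0.608 by edgeR's quasi-likelihood test, and between 5 and 71 reads lay behind each value.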

How the results depend on the processing

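Of 318 results of the 3 genes under alternatives, 291 kept their direction and their side of the threshold. *Hsf1* at day 0 became called by DESeq2 (-1.55). *Hsf1* was no longer called at day 15 with only the groups compared (-2.07) or without the 2 shallow day 0 libraries (-2.11), nor in the mean of both days without those 2 libraries (-1.81). With single samples left out, *Hsf1* was between -1.70 and -1.47 at day 0, -2.40 and -1.83 at day 15 and -1.97 and -1.70 in the mean, and *Hsf2* between 0.58 and 0.79, 0.33 and 1.11, and 0.51 and 0.90. *Hsf2* was called under none of the alternatives run, with an adjusted p of at least 0.0771 for the mean of both days. Its log2 fold change in that mean stayed below 1 in each of them, so it could not be called there at any p. Signs reversed in 17 results, all not called. Library totals without TMM, which moved the median of all genes at day 15 to -0.18, gave -0.028 for *Hsbp1* at day 15. The change of *Hsbp1* in WT mice was 0.0057 with thinned counts and 0.27 without both small libraries, and that of *Hsf2* in null mice was 0.0011 without them. Thinned counts gave an interaction of -0.030 for *Hsf2*. With single samples left out, *Hsbp1* at day 15 was between -0.0045 and 0.23. Likewise, changes from day 0 to day 15 in WT mice were between -0.42 and 0.070 for *Hsf2* and -0.26 and 0.28 for *Hsbp1*, and in null mice between -0.52 and 0.050 for *Hsf1* and -0.51 and 0.26 for *Hsf2*. The interaction was between -0.35 and 0.42 for *Hsf2* and -0.52 and 0.012 for *Hsbp1*. The share of *Hsf1* reads differed by -45.2 to -34.6 percentage points, and the log2 ratio of *Hsbp1* reads by 0.86 to 1.16.

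Same-numbered mice are different animals, and their deviations correlated at -0.30 to 0.20 between groups. Among the pairs without the WT day 0 group the values were 0.13 to 0.20. The sign of each value depends on which mouse of a group is numbered first, so they cannot show whether mice of different groups share a batch. The numbers were not used to pair mice in the main fit. With the replicate block, 25 genes were called in the mean of both days and 2 in the interaction, and the change of *Hsbp1* in WT mice was 0.0010. A block with the 2 WT mice of day 0 exchanged, chosen after seeing the data, called 1314 genes at day 15, 517 in the mean, 1856 in the change of WT mice and 54 in the interaction. 

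The counts of all genes called depended on the tool and the libraries, and the cause was not tested. DESeq2 called 18 genes at day 0, 1208 at day 15, 644 in the mean, 1737 in the change of WT mice and 120 in the interaction. Only the groups compared gave 6 at day 15. Thinned counts gave 94 in the mean and 3 in the interaction, which was 2 without TMM and 2 without the filter. Without both small libraries, 18 genes were called at day 15, 0 in the mean, 4 in WT mice, 0 in null mice and 0 in the interaction, a fit with fewer samples. With single samples left out, counts were between 0 and 17 at day 0, 12 and 873 at day 15, 0 and 435 in the mean, 92 and 1336 in WT mice, 0 and 1891 in null mice and 0 and 50 in the interaction. Precision was limited by 2 mice per group and, for *Hsf1*, by 33 to 580 reads per library.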
